A study of Mus musculus with 4 samples.

Results

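The 24 early-response genes and 12 heat-shock genes described here are 36 of the 32285 genes in the deposited matrices, found by their symbols, which were present in the files of all 4 libraries. The early-response genes were Fos, Fosb, Jun, Junb, Jund, Atf3, Egr1, Egr2, Egr3, Nr4a1, Nr4a2, Nr4a3, Klf2, Klf4, Klf6, Ier2, Ier3, Ier5, Dusp1, Dusp2, Zfp36, Btg2, Nfkbia and Socs3. The heat-shock genes were Hspa1a, Hspa1b, Hspa8, Hspb1, Hsph1, Hspe1, Hspd1, Dnaja1, Dnajb1, Hsp90aa1, Hsp90ab1 and Bag3. They were measured in CD45+ leukocytes that had been sorted by flow cytometry from both hindpaws of male C57BLKS/J mice, after digestion of the tissue in warm collagenase. Lepr db/db mice (DB), which lack the long signalling form of the leptin receptor in every tissue and become obese and diabetic, were compared with wild-type littermates (WT) at 12 weeks (young) and 21 weeks (aged). Each of the 4 groups (12-week-WT and 12-week-DB, followed by both 21-week libraries in the same order, which is that of all values below) was 1 droplet single-cell library from 2 to 3 pooled mice, so no difference between groups had a replicate check.

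Early-response genes are switched on within minutes of a stimulus such as a growth factor, a cytokine, stretch or loss of contact with the tissue, because their transcription needs no new protein. Many encode transcription factors, and others encode the phosphatases, RNA-binding proteins and inhibitors that end the same signal. Heat-shock genes encode chaperones, which hold and refold damaged proteins, and their inducible members are switched on by the factor HSF1 when unfolded proteins build up. Enzymatic digestion of tissue at body temperature is known to switch on both groups in cells that are then sequenced, and so is activation of leukocytes within the tissue. No undigested or transcription-blocked sample was analysed here, so induction before and after excision cannot be told apart in these values.

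The libraries held 5998 to 9124 cell barcodes and 47851794 to 69626521 UMIs. A UMI (unique molecular identifier) marks 1 captured molecule, and in this protocol it is read near the 3′ end of the transcript, so counts were not divided by gene length. With a minimum of 200 genes and a mitochondrial share of up to 10%, 5271, 6552, 7270 and 8707 barcodes were kept, with median UMIs of 7390, 7194, 8001 and 5355. Of these, 77.3% to 82.5% met the marker gate of exactly 1 of 10 leukocyte classes. The leading genes of the classes were those of their names, such as C1qc, C1qa and Pf4 in macrophages, Mcpt2, Cma1 and Cpa3 in mast cells and S100a9 and S100a8 in neutrophils. The number of gated mast cells was 323, 286, 214 and 1265, so the makeup of 21-week-DB stood apart. Between 57 and 187 kept barcodes of a library had a sequence also seen in another library, while over all barcodes, before this selection, the 21-week libraries had 154 in common. Levels are summed UMIs of a gene scaled by all UMIs of the same barcodes, in CPM (counts scaled to a common total). The intervals given are at the 95% level and reflect counting error alone.

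The starts of the genes are shown first, because most of the heat-shock genes had a letter pattern in common that few of the early-response genes had. RefSeq promoter sequences (build GRCm38.p6, from 250 bases before to 50 bases after the start) were found for 30 of the 36 members. Egr1, Egr3, Ier2, Hspa8, Hsp90aa1 and Hsp90ab1 had no entry. The heat-shock element, searched on both strands as GAANNTTC or TTCNNGAA, was in the promoters of 8 of 9 heat-shock genes (all but Dnajb1) and 2 of 21 early-response genes (Jun and Egr2), against 16.97% of 27025 promoters of all genes. TGACGTCA, the full cAMP response element, was in 2 of 21 early-response promoters (Dusp1 and Btg2) and in 2.03% of all promoters. Its shorter form TGACG, which also lies within TGACGTCA, was in 13 of 21 early-response promoters, 5 of 9 heat-shock promoters and 23.0% of all promoters. The CArG box, the site of serum response factor, was in 2 of 21 early-response promoters (Egr2 and Zfp36), in no heat-shock promoter and in 1.81% of all promoters. TATAAA was in 4 of 21 early-response promoters (Fos, Junb, Nr4a2 and Nfkbia), in no heat-shock promoter and in 15.7% of all promoters. These are matches of letters and not measured binding.

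The 150 bases before the start are printed for 4 heat-shock genes and 4 early-response genes on which the results below turn, 5′ to 3′ on the strand of the gene, with every match of the searched patterns in capitals (CGTCA is TGACG on the other strand).
Hspa1a (chr17:34972157-34972306, minus strand): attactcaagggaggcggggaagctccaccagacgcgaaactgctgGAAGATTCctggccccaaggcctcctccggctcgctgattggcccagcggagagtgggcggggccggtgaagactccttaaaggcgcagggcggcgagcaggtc
Hspa1b (chr17:34959239-34959388, minus strand): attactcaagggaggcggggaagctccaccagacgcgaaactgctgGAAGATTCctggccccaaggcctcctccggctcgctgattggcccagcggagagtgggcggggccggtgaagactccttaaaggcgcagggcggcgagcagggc
Hspb1 (chr5:135887769-135887918, plus strand): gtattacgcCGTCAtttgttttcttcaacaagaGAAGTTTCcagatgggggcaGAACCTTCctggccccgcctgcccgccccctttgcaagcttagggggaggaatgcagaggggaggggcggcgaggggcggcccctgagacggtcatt
Hspe1 (chr1:55087998-55088147, plus strand): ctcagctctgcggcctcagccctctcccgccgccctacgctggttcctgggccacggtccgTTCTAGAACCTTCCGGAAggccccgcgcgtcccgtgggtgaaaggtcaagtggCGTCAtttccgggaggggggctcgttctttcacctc
Fos (chr12:85473740-85473889, plus strand): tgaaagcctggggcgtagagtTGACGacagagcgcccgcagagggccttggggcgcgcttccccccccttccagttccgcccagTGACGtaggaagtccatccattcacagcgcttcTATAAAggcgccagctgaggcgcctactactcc
Dusp1 (chr17:26508473-26508622, minus strand): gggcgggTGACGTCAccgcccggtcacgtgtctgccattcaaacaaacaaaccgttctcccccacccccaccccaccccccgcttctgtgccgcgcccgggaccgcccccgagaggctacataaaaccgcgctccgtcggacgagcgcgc
Nr4a1 (chr15:101266696-101266845, plus strand): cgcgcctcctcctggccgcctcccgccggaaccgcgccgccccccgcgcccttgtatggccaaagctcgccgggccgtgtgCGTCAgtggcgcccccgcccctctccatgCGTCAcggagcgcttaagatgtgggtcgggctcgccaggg
Zfp36 (chr7:28379229-28379378, minus strand): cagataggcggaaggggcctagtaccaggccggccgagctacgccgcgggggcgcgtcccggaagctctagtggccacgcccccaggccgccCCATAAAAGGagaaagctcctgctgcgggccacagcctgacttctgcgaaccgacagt
The matches for the heat-shock element ended 97 bases before the start in Hspa1a and Hspa1b, and Hspb1 and Hspe1 had 2 and 3 matches. The upstream sequences of Hspa1a and Hspa1b were identical at 149 of 150 positions. Hspe1 and Hspd1, which encode the mitochondrial co-chaperonin and chaperonin, lie head to head on chromosome 1 and overlap at their annotated starts. The window printed for Hspe1 lies within the annotated Hspd1 gene (chr1:55077835-55088243, minus strand).

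Across cell classes, the early-response sum was highest in mast cells and neutrophils and lowest in macrophages in every library. Macrophages had early-response sums of 8754, 6109, 10024 and 9976 CPM, and 8733, 6110, 10022 and 9986 without the barcodes that libraries had in common. Mast cells had 30748, 29661, 44759 and 39676 CPM, which were 3.07%, 2.97%, 4.48% and 3.97% of all their UMIs. Neutrophils had 37197, 49192, 42311 and 27135 CPM from 72, 74, 102 and 35 barcodes. The other 7 classes lay between 9271 (type 2 conventional dendritic cells, cDC2, in 12-week-DB) and 17807 CPM (natural killer cells in 12-week-WT).

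The heat-shock sum had another order. It was also highest in mast cells, with 25704, 29262, 31193 and 30399 CPM. Neutrophils had the lowest heat-shock sum in the first 3 libraries, with 4939, 4469 and 5282 CPM, and 9688 in 21-week-DB. Macrophages followed with 6237, 5185, 7924 and 7671 CPM, the lowest sum of the 10 classes in 21-week-DB. Per barcode, the median heat-shock sum was 3384, 2666, 2537 and 2966 CPM in neutrophils and 4082, 3665, 4893 and 4258 in macrophages. By this median neutrophils were below macrophages in every library. In 21-week-DB the 35 neutrophil barcodes had a 75th percentile of 6274 and a 90th percentile of 17568 CPM. In 21-week-WT these were 4434 and 15474 CPM. The part of single barcodes in the higher sum of 21-week-DB was not tested. Mast cells were thus high for both sums and neutrophils for the early-response sum.

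**Figure D1:**
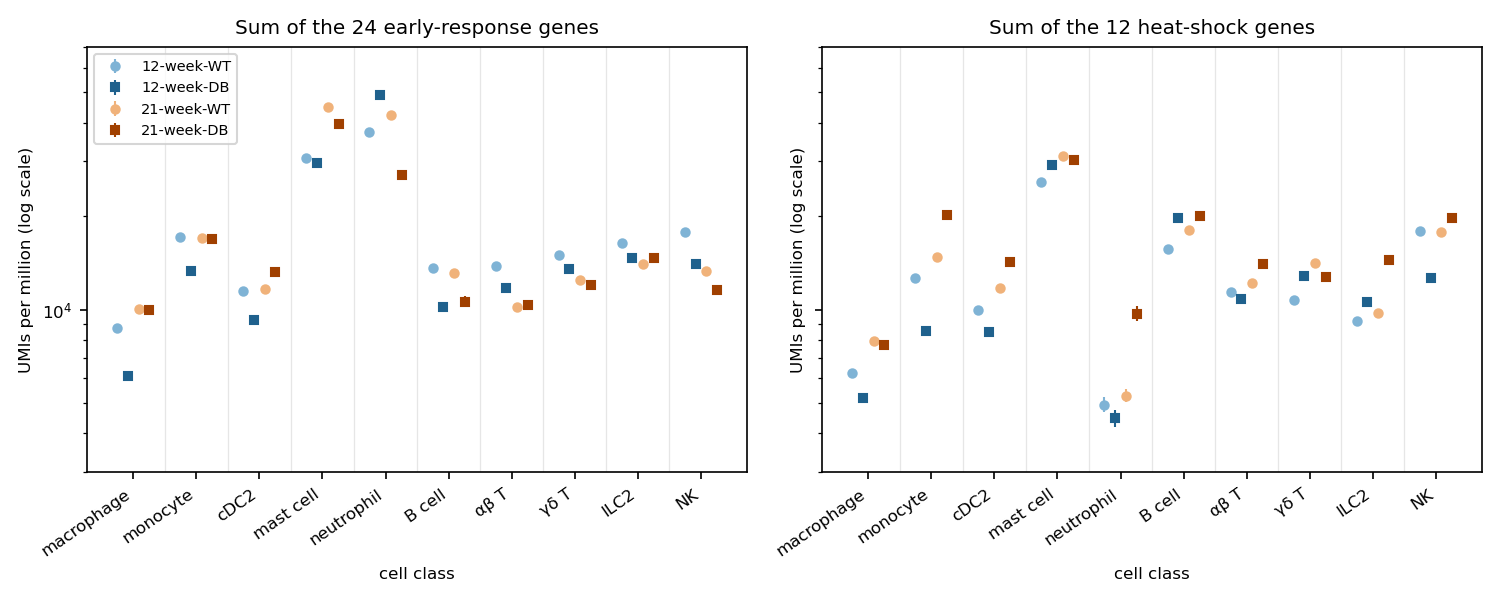
Summed level of the 24 early-response genes (left) and the 12 heat-shock genes (right) in CPM on a log axis, for 10 cell classes and 4 libraries, with exact 95% intervals for counting error that are mostly smaller than the points. Mast cells were at 25704 CPM or above for both sums in every library, whereas neutrophils were at 27135 or above for the early-response sum and at 9688 or below for the heat-shock sum.

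The classes were tested against each other with the 4 libraries as replicates of a class and the library as a block (edgeR quasi-likelihood test on summed counts, Benjamini-Hochberg adjusted p under 0.05 over 12504 genes). All 36 members could be tested. In mast cells against the mean of the other classes, 27 members were higher, 6 lower and 3 not called, where 25.2% of all genes were higher and 21.6% lower. The members had a median log2 difference of 1.04 against -0.04 over all genes. Egr1, a zinc finger factor of the immediate early response, had 3079, 1871, 3287 and 2633 CPM in mast cells and was 3.73 higher (log2, SE 0.16, edgeR adjusted p = 4.98e-21). Bag3, which links HSP70 to autophagy, had 352, 319, 364 and 320 CPM and was 2.87 higher (SE 0.21, edgeR adjusted p = 1.95e-14). The AP-1 subunits Fos, Fosb and Jun were 2.33, 2.52 and 2.54 higher (log2). Of the heat-shock genes 11 of 12 were higher in mast cells, led by Bag3 and Dnajb1 (2.48), an HSP40 co-chaperone that helps to shut HSF1 off.

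The members that were lower in mast cells were Btg2, Dusp2, Socs3, Hspb1, Atf3 and Ier5. Btg2, an antiproliferative gene, had 29.5, 39.2, 78.1 and 32.1 CPM in mast cells and was lower (log2 difference -3.66, SE 0.24, edgeR adjusted p = 1.17e-15). Socs3, a feedback inhibitor of cytokine receptors, was at -2.80, and Dusp2, a nuclear MAP kinase phosphatase, at -2.81. Egr2, Klf4 and Nfkbia had log2 differences of 0.33, 0.51 and -0.33 that did not pass the test. Mast cells had the lowest median depth of the 10 classes in every library, with 1415 to 2007 UMIs per barcode against 8588 to 10229 in macrophages, and a median mitochondrial share of 0.931% to 2.47%, and the part of depth in these differences was not tested.

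In neutrophils against the other classes, 22 members were higher, 8 lower and 6 not called (18.3% and 20.6% of all genes were higher and lower). The split followed the 2 groups of genes. Of the early-response genes 21 were higher, none was lower and 3 (Egr3, Nr4a2 and Klf4) were not called. Of the heat-shock genes 8 were lower, 1 (Hspb1) was higher and 3 (Hspa8, Dnaja1 and Bag3) were not called. Dusp1, the phosphatase that switches off stress kinases, had 4902, 6402, 4852 and 2504 CPM and was 2.84 higher (log2, SE 0.13, edgeR adjusted p = 4.75e-20). Egr1 was 3.65, Ier3 (a survival gene induced by NF-κB) 3.39, Socs3 2.74 and Zfp36 2.45 higher. Hspe1 had 33.1, 51.4, 33.1 and 224 CPM and was at -2.20 (SE 0.21, edgeR adjusted p = 6.80e-11). The call for Hspb1 at 1.79 (edgeR adjusted p = 0.0025) rested on 21-week-DB, without which its log2 difference was -0.81.

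Macrophages were below both the lymphoid classes (αβ T cells, γδ T cells, type 2 innate lymphoid cells or ILC2, and natural killer cells) and cDC2 for most members. Against the lymphoid classes 8 members were higher, 22 lower and 6 not called, where 36.1% of all genes were higher and 32.4% lower. The higher members were Ier3 (log2 difference 3.53, SE 0.20, edgeR adjusted p = 1.29e-17), Hspb1 (1.98), Egr2 (1.46), Klf4 (1.26), Socs3 (0.85), Bag3 (0.82), Klf2 (0.80) and Egr1 (0.70). The nuclear receptors of the NR4A family, which are induced by receptor signalling in lymphocytes, were the lowest, with Nr4a3 at -3.93, Nr4a2 at -3.02 and Nr4a1 at -1.99. Nr4a3 had 22.0, 17.04, 40.9 and 25.3 CPM in macrophages and 475, 447, 263 and 270 in αβ T cells, with no overlap of the 2 classes.

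Against cDC2, antigen-presenting cells of the same tissue, 1 member was higher in macrophages, 25 were lower and 10 were not called, with 19.3% of all genes higher and 19.6% lower. The higher member was Klf2 (log2 difference 0.78, SE 0.24, edgeR adjusted p = 0.0094), a zinc finger factor of quiescent cells. Nr4a3 was again lowest at -3.84 (SE 0.41, edgeR adjusted p = 9.56e-10), followed by Nr4a2 at -2.01, Dusp2 at -1.74 and Hsph1, the HSP110 exchange factor of HSP70, at -1.52. Of the heat-shock genes 10 of 12 were lower in macrophages than in cDC2, and Hspb1 (0.18) and Bag3 (-0.43) were not called.

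Within macrophages, the class with the most barcodes in 3 of the 4 libraries, the question was how the members differed between genotypes and ages. At 12 weeks the early-response sum was lower in DB (6109) than in WT (8754 CPM), a difference of -0.52 on the log2 scale (interval -0.53 to -0.51). At 21 weeks the sums of DB (9976) and WT (10024) differed by a log2 ratio of -0.007 (interval -0.017 to 0.004). The heat-shock sum was lower in DB at 12 weeks by a log2 ratio of -0.27 and at 21 weeks by -0.047. From 12 to 21 weeks the early-response sum was higher by 0.20 in WT and 0.71 in DB, and the heat-shock sum by 0.35 and 0.56. Cell Ranger 5.0.0 is named in the 12-week files and 6.0.0 in the 21-week files. The submitters' processing notes name 5.0.0 for all 4 libraries, whereas the study's methods name 6.0 for all, so these sources disagree. By the file headers, age and software version cannot be told apart. The contrasts share libraries and are not independent of each other.

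Counted gene by gene in macrophages, 29 of the 36 members were lower in DB at 12 weeks and 5 were lower past 2-fold, with none higher past 2-fold. Among all genes with at least 50 UMIs in the 2 libraries, 4.54% were past 2-fold in either direction. The 5 were Jun, Dusp2, Egr1, Egr3 and Fosb. The early-response genes were lower in 22 of 24 cases, with a median log2 ratio of -0.68, and the heat-shock genes a median of -0.057, against 0.006 over all genes. At 21 weeks 15 members were higher and 21 lower in DB, with Hspb1 higher and Nr4a2 lower past 2-fold (8.10% of all genes). From 12 to 21 weeks 31 of 36 members were higher in WT and 33 of 36 in DB. Over all genes the median log2 ratios with age were -0.17 and -0.12. Past 2-fold were 2 in WT (Hspb1 and Socs3, 3.87% of all genes) and 7 in DB (Hspb1, Ier3, Jun, Atf3, Nfkbia, Fosb and Hspa1a, 7.59% of all genes), none of them lower.

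The AP-1 subunits, which pair as dimers on the same DNA site, did not move as a block. Jun had 642, 274, 518 and 815 CPM in macrophages, with the lowest value in 12-week-DB and the highest in 21-week-DB. Its log2 ratio of DB over WT was -1.23 at 12 weeks (interval -1.28 to -1.18) and 0.65 at 21 weeks (0.61 to 0.69). With age it was lower in WT (-0.31, interval -0.35 to -0.27) and higher in DB (1.57, 1.52 to 1.62). Fos had 602, 354, 642 and 632 CPM, so that only 12-week-DB lay apart from the other libraries (log2 ratio -0.76 at 12 weeks and -0.02 at 21 weeks). The number of Fos UMIs for each Jun UMI was therefore 0.938, 1.29, 1.24 and 0.776.

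Fosb, another subunit of AP-1, had 109, 54.6, 158 and 114 CPM and was lower in DB at both ages (-1.004 and -0.46). Junb, among the 3 highest early-response genes, had 919, 503, 1068 and 866 CPM (-0.87 and -0.30). Jund, the most steadily expressed subunit, had 825, 616, 876 and 898 CPM and the smallest difference of the family at 12 weeks (-0.42, and 0.04 at 21 weeks). Atf3, a stress-induced partner of Jun, had 224, 139, 269 and 409 CPM and, as Jun did, its lowest value in 12-week-DB and its highest in 21-week-DB (-0.70 and 0.60).

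Of the zinc finger factors of the EGR family, Egr1 had 250, 111, 240 and 203 CPM, a log2 ratio of -1.17 at 12 weeks (interval -1.25 to -1.09) and -0.24 at 21 weeks. Egr2 had 27.05, 22.6, 45.4 and 39.7 CPM, and Egr3, with 8.53, 3.92, 9.25 and 6.68, was the lowest of all members. All 3 were lower in DB at both ages. The receptor Nr4a1 had 140, 88.3, 238 and 171 CPM, Nr4a2 had 41.8, 24.9, 61.7 and 24.2, and Nr4a3 had 22.0, 17.04, 40.9 and 25.3. All 3 were lower in DB at both ages as well, and Nr4a2 at 21 weeks had the lowest log2 ratio of any member, -1.35 (interval -1.54 to -1.16), while its ratio with age in DB was -0.04 (-0.25 to 0.17). Nr4a3 was lower in DB at 21 weeks by -0.69 (interval -0.89 to -0.50) and higher with age in WT by 0.89 (0.70 to 1.09).

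The KLF factors, which are expressed in resting macrophages, differed less at 12 weeks. Klf6 had the highest mean level of the early-response genes, with 1106, 945, 1085 and 854 CPM and log2 ratios of -0.23 and -0.34 at 12 and 21 weeks, and it was one of 3 members lower with age in DB (-0.15, interval -0.18 to -0.11). Klf2 had 507, 499, 481 and 663 CPM (-0.03 and 0.47), with -0.08 between ages in WT (interval -0.12 to -0.03). Klf4, a factor of alternatively activated macrophages, had 532, 576, 770 and 673 CPM and was one of the 2 early-response genes that were not lower in DB at 12 weeks (0.12, interval 0.07 to 0.16, and -0.19 at 21 weeks). Socs3 was the other, with 68.0, 71.9, 149 and 123 CPM, higher at 21 than at 12 weeks by 1.13 in WT (interval 1.02 to 1.24) and 0.78 in DB.

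The feedback genes included both Dusp phosphatases. Dusp1 had 597, 449, 728 and 572 CPM, and Dusp2, with 29.7, 13.1, 36.7 and 20.03, was lower in DB by -1.18 at 12 weeks (interval -1.41 to -0.95) and -0.87 at 21 weeks (-1.09 to -0.66). Zfp36, the RNA-binding protein that destabilizes cytokine transcripts, had 634, 359, 757 and 517 CPM and was also lower in DB at both ages (-0.82 and -0.55). Btg2 had 131, 102, 178 and 189 CPM. Nfkbia, the inhibitor that holds NF-κB in the cytoplasm, had 471, 317, 634 and 800 CPM and turned from -0.57 at 12 weeks to 0.34 at 21 weeks.

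Of the immediate early response genes named IER, Ier3 turned in the same way. It had 431, 320, 627 and 963 CPM and log2 ratios of -0.43 at 12 weeks (interval -0.48 to -0.38) and 0.62 at 21 weeks (0.58 to 0.66), and its ratio of 21-week-DB over 12-week-DB was 1.59 (1.54 to 1.63). Ier2 had 179, 108, 189 and 192 CPM, with only 12-week-DB apart (-0.73). Ier5, which acts on HSF1, had 258, 141, 224 and 207 CPM (-0.87 and -0.12) and was lower at 21 than at 12 weeks in WT (-0.20, interval -0.27 to -0.14). In 21-week-DB macrophages, Jun, Atf3, Ier3 and Nfkbia were thus above all other libraries, whereas Nr4a2 (24.2) lay near its value in 12-week-DB (24.9).

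The inducible chaperones Hspa1a and Hspa1b, near-identical HSP70 genes, had the highest levels of the heat-shock genes. Hspa1a had 1381, 927, 1928 and 1937 CPM and log2 ratios of -0.58 at 12 weeks and 0.01 at 21 weeks. Hspa1b had 1684, 1154, 2276 and 1690 CPM (-0.54 and -0.43), so that the genes differed in 21-week-DB. Hsph1 had 53.9, 41.3, 73.5 and 72.3 CPM, and Dnajb1 had 67.1, 52.1, 76.8 and 66.0. Hsp90aa1, the inducible HSP90, had 404, 322, 533 and 624 CPM (-0.33 and 0.23). All 5 had their lowest value in 12-week-DB.

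The constitutive chaperones were closer together at 12 weeks. Hspa8, the HSP70 of unstressed cells, had 1099, 1116, 1309 and 1131 CPM, and Hsp90ab1, the constitutive HSP90, had 907, 914, 946 and 1006. Dnaja1, the HSP40 partner of Hspa8, had 266, 266, 296 and 433 CPM and was higher in DB at 21 weeks by 0.55. The mitochondrial chaperonins Hspe1 and Hspd1 had 157, 175, 186 and 236 and 101, 94.4, 106 and 136 CPM and were higher in DB at 21 weeks by 0.34 and 0.36. Hspe1 was also higher in DB at 12 weeks (0.16, interval 0.08 to 0.23). Bag3 had 68.9, 68.3, 77.7 and 61.1 CPM (-0.01 and -0.35), and was lower with age in DB (-0.16, interval -0.29 to -0.03). Hsp90aa1 UMIs for each Hsp90ab1 UMI numbered 0.446, 0.352, 0.563 and 0.620 in macrophages and 1.61, 1.87, 2.07 and 2.07 in mast cells, so that the inducible form was below the constitutive one in macrophages and above it in mast cells.

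**Figure D2:**
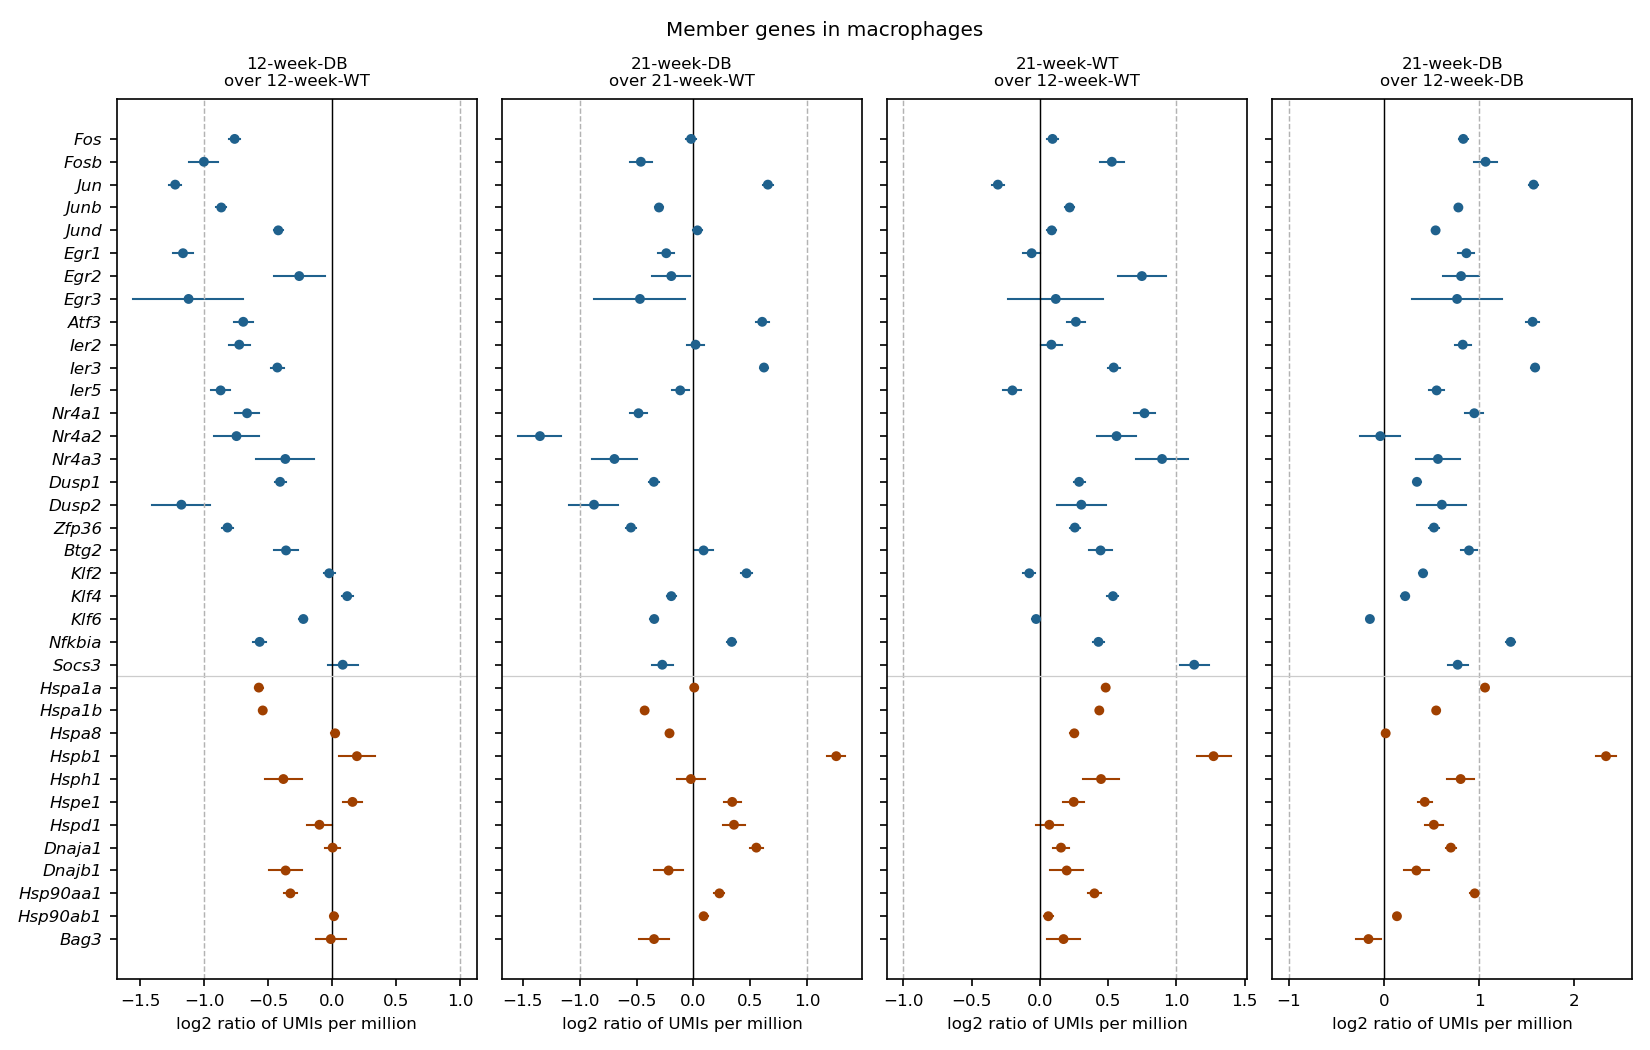
Log2 ratio of CPM of each member between libraries in macrophages, with early-response genes in blue and heat-shock genes in orange, bars for 95% counting intervals and dashed lines at a 2-fold ratio. In the left panel 22 of 24 early-response points lay below 0, and in the right panel 33 of 36 points lay above 0, with Hspb1 farthest out at 2.33.

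Depth, mitochondrial share and RNA of other cells also differed between the macrophages of the 4 libraries. The part of depth and mitochondrial share in the 12-week difference was not tested. Median UMIs of macrophage barcodes were 8588, 10144, 10229 and 8740, and the median mitochondrial share was 3.58%, 2.72%, 4.04% and 2.29%. In 12-week-WT the early-response sum was 12280 CPM in barcodes with under 2% mitochondrial UMIs, 9218 with 2% to 4% and 7368 with 4% to 10%. In 12-week-DB the same bins had 6701, 6079 and 5283 CPM, lower than in WT in each. In bins of under 5000, 5000 to 10000 and at least 10000 UMIs, 12-week-WT had 12630, 10320 and 7507 and 12-week-DB 8335, 7748 and 5400 CPM, again lower in each. In 21-week-DB the sum did not decline with the mitochondrial share, with 9989, 9827 and 11552 CPM.

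Each of the 5 stromal markers (Col1a1, Col1a2, Col3a1, Dcn and Sparc) had UMIs in macrophage barcodes of every library, except Col1a1 in 21-week-DB, and they summed to 219, 76.0, 283 and 102 CPM, lower in DB at both ages. All 3 endothelial (summed level 3.59 to 8.47), 3 keratinocyte (7.48 to 14.6) and 3 erythrocyte markers (0.426 to 10.4 CPM) had UMIs in every library. The part of these other cells in the 12-week difference of the early-response genes was not tested.

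Single macrophages spread widely around these sums. The early-response sum per barcode had medians of 6134, 4228, 6675 and 5998 CPM. In 12-week-WT it ran from 2434 at the 10th to 23409 at the 90th percentile of barcodes, and in 21-week-DB from 2308 to 28242. The 12-week-DB median was the lowest, with a 90th percentile of 14680. Across the barcodes of a class and library, the early-response and heat-shock sums had Spearman correlations of 0.43 to 0.75 in 6 classes and 4 libraries, over 214 to 1765 barcodes each. After thinning to 2000 UMIs they were 0.42 to 0.72 over the 82 to 1724 barcodes deep enough, which in mast cells were 164 of 323, 98 of 286, 82 of 214 and 350 of 1265. These are given as a description, since the sums of a barcode share its library, depth and total.

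The other large classes, those with at least 200 barcodes in every library, were cDC2, mast cells, αβ T cells, γδ T cells and ILC2. At 12 weeks the early-response sum was lower in DB in 9 of the 10 classes, all but neutrophils (0.40). In the 5 large classes the differences were smaller than in macrophages, with log2 ratios of -0.30, -0.05, -0.24, -0.15 and -0.16 against -0.52 in macrophages. Of the 34 members measured in all 6 classes, 6 were lower in DB in every class (Fosb, Jun, Jund, Egr1, Egr2 and Ier5), where 4.43% of all genes were. Hspe1 was the only member higher in every class, where 6.94% of all genes were. Direction here and below is the sign of the ratio, without a minimum size, and the smallest log2 ratio of Hspe1 was 0.011. Egr1 had log2 ratios from -1.17 in macrophages to -0.62 in γδ T cells. In αβ T cells it had 212, 101, 110 and 101 CPM, in ILC2 202, 121, 126 and 73.6, so that at 21 weeks both genotypes lay near or below the 12-week-DB level.

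Mast cells, in which 27 members were higher by the test, differed between libraries in other ways than macrophages. Hspa1b had 9565, 11868, 11041 and 9815 CPM in mast cells and Hspa1a 4906, 5723, 4925 and 4813, the highest value of both being in 12-week-DB. Fos had 3540, 3223, 5003 and 5162 CPM and Jun 3582, 2945, 4876 and 4018, both higher at 21 than at 12 weeks. Of the members with enough UMIs, 10 of 20 early-response genes and 7 of 11 heat-shock genes were higher in DB at 12 weeks, and 6 of 23 and 5 of 11 at 21 weeks. Over all genes of mast cells the median log2 ratios of DB over WT were -0.033 and -0.0086. In barcodes with under 2%, 2% to 4% and 4% to 10% mitochondrial UMIs, the early-response sum of 12-week-WT mast cells was 40026, 28590 and 18792, and that of 21-week-DB 43943, 30147 and 21412 CPM, so that it was lower at a higher mitochondrial share in both.

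In the 4 classes with fewer barcodes the sums differed widely between libraries. Monocytes had heat-shock sums of 12655, 8499, 14783 and 20164 CPM from 128, 109, 335 and 74 barcodes. B cells had 15643, 19676, 18022 and 19965 CPM, and early-response sums of 13586, 10177, 13145 and 10614, so that the genotypes differed in opposite directions for the 2 sums at both ages. Natural killer cells had early-response sums of 17807, 14047, 13284 and 11591 CPM.

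In γδ T cells the groups went apart at 12 weeks. All 12 heat-shock genes were higher in DB (median log2 ratio 0.48), whereas 16 of 24 early-response genes were lower with a median of -0.30. Over all genes of the class the median was 0.024. The gate did not separate dermal γδ T cells from dendritic epidermal T cells, which the study treats as separate clusters. The study reports more dendritic epidermal T cells in DB at both ages. Bag3 had 71.7, 127, 27.4 and 33.6 CPM in γδ T cells, with the 12-week libraries above the 21-week libraries. Nr4a2 had 378, 601, 186 and 340 CPM and was higher in DB at both ages in γδ T cells (0.67 and 0.87), whereas it was lower in macrophages at both ages.

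At 21 weeks, of the 36 members measured in all 6 classes, 8 were higher in DB in every class (Ier3, Nfkbia, Hspb1, Hspe1, Hspd1, Dnaja1, Hsp90aa1 and Hsp90ab1), where 16.4% of all genes were. Their smallest log2 ratios were 0.025 for Ier3, 0.043 for Hsp90ab1, 0.045 for Hsp90aa1 and 0.054 for Nfkbia. In αβ T cells Ier3 had 52.5 CPM in WT and 53.4 in DB, with overlapping intervals. Hspb1 in mast cells had 7 UMIs in WT and 39 in DB. Fosb, Zfp36 and Klf4 were lower in every class, where 15.8% of all genes were. The count of lower members was thus not above the background share, and whether the count of higher members exceeded its share was not tested. Dnaja1 was higher by at least 0.55 on the log2 scale in each class, with a ratio of up to 1.18. In ILC2 Dnaja1 had 714, 710, 634 and 1432 CPM, with 21-week-DB above the other libraries, which lay close together. Hspe1 had 225, 264, 260 and 647 CPM in ILC2 and 316, 343, 332 and 730 in αβ T cells, with the same order. Hspd1 had 174, 222, 183 and 430 CPM in ILC2.

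Zfp36 showed the opposite at 21 weeks. It had 1475, 1122, 966 and 556 CPM in ILC2 and 952, 584, 644 and 331 in γδ T cells, the lowest value being in 21-week-DB in both. Fos had 539, 527, 312 and 727 CPM in αβ T cells, and its log2 ratio of DB over WT at 21 weeks was 1.22 in αβ T cells, 0.86 in γδ T cells, 0.67 in ILC2 and -0.02 in macrophages. Ier3 and Nfkbia, both targets of NF-κB, had ratios of 1.21 and 1.09 in cDC2, where Nfkbia had 803, 674, 891 and 1899 CPM.

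Between ages in WT, 35 members were measured in all 6 classes. Jund, Hspa1a, Hspa1b, Hspe1 and Dnajb1 were higher at 21 weeks in every class (5.34% of all genes), and Ier5 was lower in every class (24.4% of all genes). In DB, Jun, Jund, Atf3, Ier3, Hspb1, Hspe1, Dnaja1 and Hsp90ab1 were higher at 21 weeks in every class (8.81% of all genes), and none of the 36 members was lower in every class (28.5% of all genes). The early-response sum went in different directions between classes, with log2 ratios of 21 over 12 weeks in WT of 0.20 in macrophages, 0.54 in mast cells, -0.44 in αβ T cells and -0.27 in γδ T cells. In the 3 lymphoid classes of this set it was lower at 21 weeks in WT, and 20 of 24 early-response genes in αβ T cells were lower. The median log2 ratio over all genes of αβ T cells was -0.067.

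**Figure D3:**
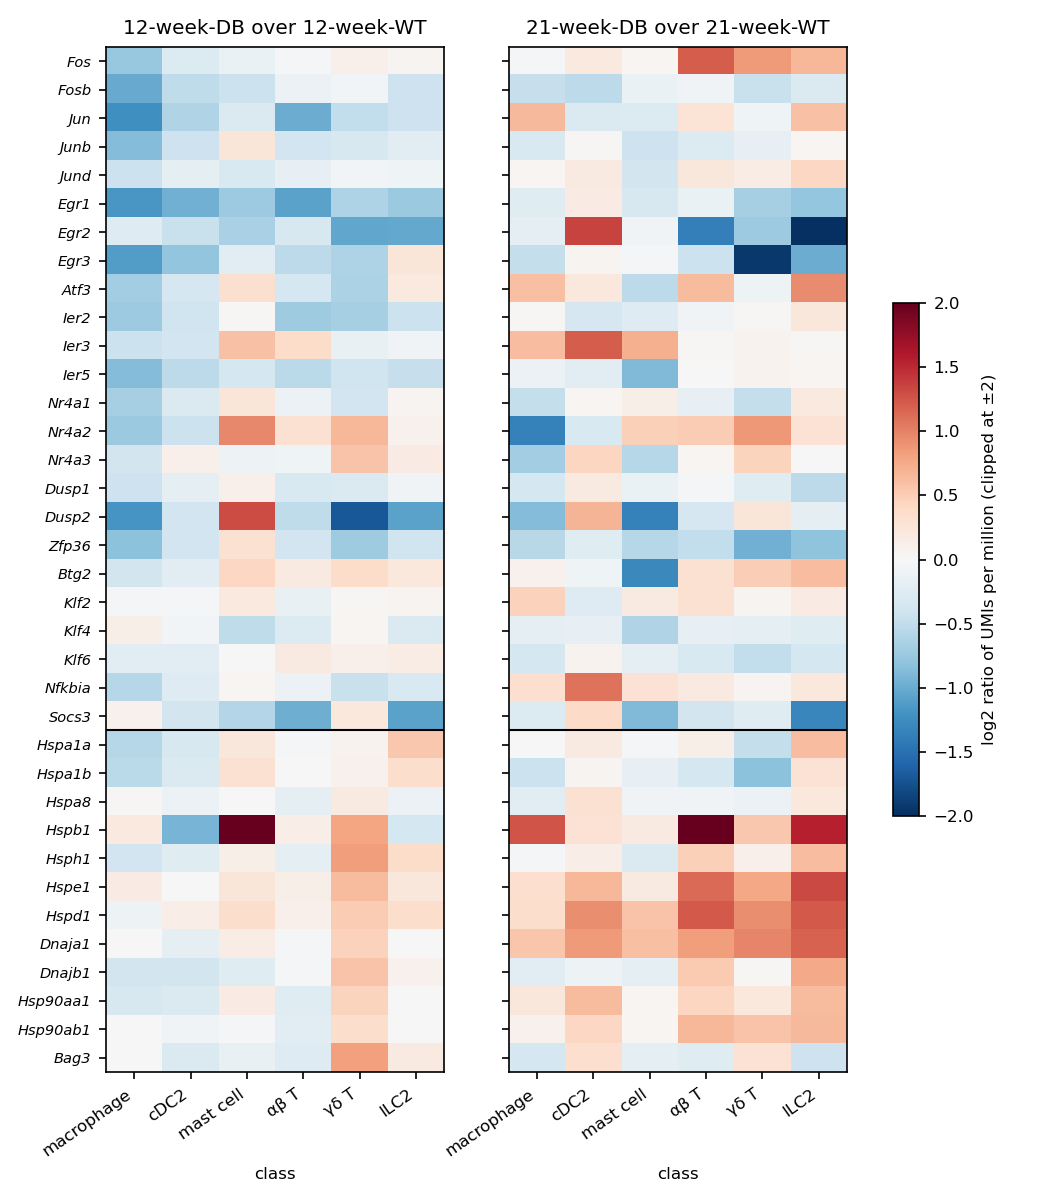
Log2 ratio of CPM of DB over WT at 12 weeks (left) and 21 weeks (right) for each member (rows, early-response genes above the line) in the 6 large classes (columns), with colours clipped at a log2 ratio of 2 in either direction. At 12 weeks the row of Egr1 was lower in every class, and at 21 weeks the rows of Hspe1, Hspd1 and Dnaja1 were higher in every class.

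Hspb1, which encodes the small heat-shock protein HSP27 and lies on chromosome 5, had the largest ratio of any member in macrophages in 21-week-DB over 12-week-DB. It had 48.3, 55.1, 117 and 278 CPM, higher at each age in DB and higher at 21 than at 12 weeks. The log2 ratio of DB over WT was 0.19 at 12 weeks (interval 0.05 to 0.33) and 1.25 at 21 weeks (1.17 to 1.33). With age it was 1.27 in WT (1.15 to 1.40) and 2.33 in DB (2.23 to 2.43). It was found in 158 of 1582, 212 of 1739, 340 of 1483 and 479 of 1328 macrophage barcodes (9.99%, 12.2%, 22.9% and 36.1%). After thinning to 2000 UMIs these shares were 4.51%, 5.07%, 10.2% and 19.2%, without 53, 42, 47 and 35 shallower barcodes. Mast cells, in which Hspb1 was lower than in the other classes by the test above, had shares of 0.619%, 2.80%, 1.87% and 2.21% at median UMIs of 1415 to 2007, and thinned shares of 1.22% to 3.43%.

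In each library the 3 barcodes with the most Hspb1 UMIs held a smaller share of the total in macrophages than in any other class. These shares were 16.1%, 30.4%, 15.5% and 8.01% in macrophages. In 12-week-DB 1 of 1739 macrophage barcodes held 180 of the 1041 UMIs, and 3 held 316. The small excess of DB in macrophages at 12 weeks thus depends on few barcodes, which its counting interval does not cover. In 21-week-DB neutrophils Hspb1 was at 723 CPM against 12.4, 8.57 and 16.5 in the other libraries, but 3 of 35 barcodes held 93 of the 97 UMIs. In αβ T cells it had 8.45, 9.30, 16.6 and 99.5 CPM, and 3 barcodes held 68.1% of the UMIs in 21-week-DB. Fibroblasts, endothelial cells and keratinocytes express Hspb1, so the levels were computed again without barcodes that held a UMI of any of 11 stromal, endothelial and keratinocyte markers. In macrophages this left out 682, 380, 581 and 384 barcodes, and the levels became 42.0, 44.9, 90.7 and 235 CPM, in the same order as before. In 21-week-DB neutrophils it left out 8 of 35 barcodes and left 1 Hspb1 UMI (13.3 CPM). In ILC2 the levels went from 57.1, 44.5, 35.8 and 106 to 12.8, 20.9, 14.3 and 111 CPM, so that the first 3 libraries moved and 21-week-DB did not. In 21-week-DB αβ T cells 69.4 CPM were left.

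Hspa1a (chr17:34969190-34972156, minus strand) and Hspa1b (chr17:34956436-34959238, minus strand; GENCODE vM21 on GRCm38) could be told apart only in part. In their transcripts, 49.3% and 52.3% of all 90-base stretches occurred in both genes, but none did in the last 500 bases, where most 3′ reads fall. The number of Hspa1b UMIs for each Hspa1a UMI was 1.22, 1.25, 1.18 and 0.873 in macrophages. In γδ T cells it was 1.88, 1.90, 1.62 and 1.28, in ILC2 2.12, 1.86, 1.75 and 1.38, and in αβ T cells 1.63, 1.65, 1.57 and 1.13. The ratio in 21-week-DB was the lowest of the 4 libraries in 8 of 10 classes. The exceptions were monocytes (1.36, 1.21, 1.29 and 1.45) and mast cells (1.95, 2.07, 2.24 and 2.04). Reads from the shared stretches fit both genes, so the level of either gene alone is less certain than that of other members.

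**Figure D4:**
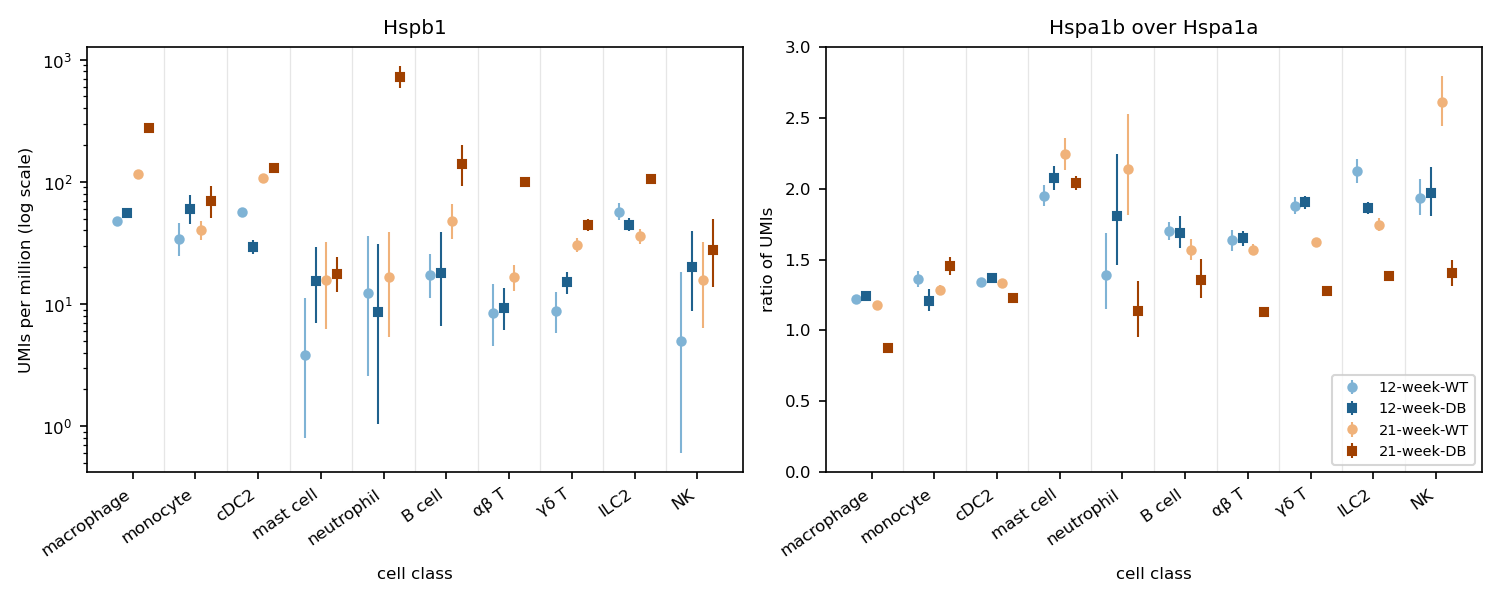
Left, level of Hspb1 in CPM on a log axis for 10 cell classes and 4 libraries. Right, the number of Hspa1b UMIs for each Hspa1a UMI, with bars for 95% counting intervals in both panels. The summed level of Hspb1 was highest in 21-week-DB in each of the 10 classes, with 278 in macrophages and 723 in neutrophils. In that library 3 barcodes held 93 of 97 UMIs in neutrophils and 45 of 47 in monocytes. Natural killer cells had 11 UMIs there, with an interval (13.9 to 49.8) that overlapped that of 12-week-DB (8.69 to 39.7). The ratio of Hspa1b to Hspa1a was lowest in 21-week-DB in macrophages (0.873).

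The members were compared in macrophages with 4 lists of related genes. Among 37 measured other early-response genes, such as Fosl2, Dusp4 and Gadd45b, none was higher and 4 were lower past 2-fold in DB at 12 weeks, and the median log2 ratio was -0.48. At 21 weeks 1 was higher and 1 lower (median 0.081), and from 12 to 21 weeks in DB 11 were higher and none lower (median 0.53). In WT 3 were higher and 1 lower with age (median 0.26). The highest of this list by level, Btg1 and Zfp36l2, had 740, 887, 677 and 803 and 790, 838, 694 and 735 CPM, without the dip in 12-week-DB.

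Among 29 measured other chaperones, none was past 2-fold between genotypes at either age (medians 0.069 and 0.023), and Dnaja4 alone was past 2-fold, higher at 21 weeks in WT. Ubb, which encodes ubiquitin and is switched on by stress, had the highest mean level of this list, with 445, 605, 813 and 1198 CPM, higher in DB than in WT at both ages. None of 9 endoplasmic reticulum stress genes was past 2-fold in any contrast, with medians of -0.23 and 0.036 between genotypes. Hspa5, the chaperone of that compartment, had 625, 421, 499 and 508 CPM. None of 10 upstream regulators, such as Srf, Hsf1 and the kinase Mapk3, was past 2-fold, with medians of -0.074 and -0.29 between genotypes.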

How the data were processed

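CD45+ hindpaw leukocytes were profiled in 4 libraries, 1 per group. Reads were mapped to mm10 by the authors with Cell Ranger (5.0.0 in the headers of the 12-week files and 6.0.0 in those of the 21-week files) and deposited, for each barcode, whole-number UMI counts of every gene. Groups were taken from the labels, which name the ages as young and aged, and from the methods, which give the weeks.

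Barcodes that had 200 or more genes and a mitochondrial share of up to 10% were assigned to 10 classes by gates on marker genes, none of them a member. Barcodes that met 2 gates (179 to 279 per library) or no gate were left out, in place of a doublet caller. Classes held 37848712, 43973881, 55101014 and 42930864 UMIs (12-week libraries first, WT before DB). Counts were summed over the barcodes of a class and divided by all their UMIs, as CPM. Exact Poisson intervals (levels), binomial intervals (ratios) and Clopper-Pearson intervals (shares) at 95% cover counting error only. No test was made between groups. Ratios were read for genes with at least 50 UMIs in the 2 sums, and directions over the 6 large classes for genes with at least 20 UMIs. Classes were compared with the quasi-likelihood test of edgeR 4.0.16 (R 4.3.3) after TMM scaling and filterByExpr, with a term for the library and Benjamini-Hochberg adjustment over all genes, checked on simulated counts. The libraries share every class, so the block pairs the sums of a library. The p-values measure the spread between these 4 libraries, which differ in genotype and age.

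All 36 members are named. Full values are given for the 3 members with the highest and the 3 with the lowest log2 ratio in macrophages in each contrast and for the 3 highest of each group by level. Of the other lists only counts, medians and the 2 highest by level are given (1 gene is not reported here), with the genes past 2-fold named where few. Members, lists and markers were chosen with earlier results of these data known, and the gates were set after the files were seen. Coordinates are from GENCODE vM21 and sequences from RefSeq. Of the members, 4 overlap a gene on the same strand and 10 a gene on the other strand. Ddit3, which named 2 rows, was left out of the endoplasmic reticulum stress list.

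Alternatives were a minimum of 500 genes, a mitochondrial share of up to 5%, removal of high Scrublet scores (scanpy 1.11.5), a total without mitochondrial, ribosomal protein and member genes, subtraction of ambient RNA, equal weight for each barcode, stricter gates, centring on the median of all genes, class shares held constant, DESeq2 1.42.0 and its size factors, no filter on genes, no library block, each library left out and thinning to 2000 UMIs. Leaving out shared barcodes, and barcodes with markers of other cells for Hspb1, was added after seeing the data.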

Additional observations from a re-analysis of the deposited data

Results flagged for a closer look

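In several classes the summed members were lower in DB than in WT at one age and higher at the other, on the log2 scale and beyond counting error. With 1 library per group this difference between ages was not tested. In cDC2 the early-response sum had a log2 ratio of DB over WT of -0.30 at 12 weeks and 0.18 at 21 weeks, and the heat-shock sum -0.23 and 0.27. In αβ T cells the heat-shock sum had -0.083 and 0.21. The early-response sum of αβ T cells had -0.24 and 0.023, but the value at 21 weeks ran from -0.083 to 0.20 over its alternatives and was below 0 in 3 of 9. In ILC2 the early-response sum had -0.16 and 0.072, the latter running from -0.18 to 0.23 and below 0 in 1 of 9. The opposite order was found for the heat-shock sum in γδ T cells, with 0.26 at 12 weeks and -0.15 at 21 weeks, and in mast cells, with 0.19 and -0.037, where the value at 21 weeks ran from -0.12 to 0.019 and was above 0 in 1 of 9. The other ratios named here kept their sign under all 9 alternatives.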

How the results depend on the processing

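The count of members lower past 2-fold in macrophages, 1 for DB over WT at 21 weeks, was 3 with ambient RNA subtracted and 2 with equal weight for each barcode, and for 21-week-DB over 12-week-DB it was 1 with ambient RNA subtracted against 0. The count of members higher in macrophages than in cDC2, 1 by edgeR with TMM scaling, was 2 with DESeq2 size factors, 2 by DESeq2 and 4 with no filter on genes. With each library left out in turn it was 1 to 2 (2 without 21-week-DB), and the counts of lower members were 20 to 23 against lymphoid classes and 23 to 25 against cDC2. Mast cells then had 26 to 28 higher and 5 to 6 lower members, neutrophils 19 to 21 and 7 to 8, and macrophages against lymphoid classes 7 to 9 higher. Without the replicate block 8 and 20 members were higher and lower in macrophages against lymphoid classes, 1 and 17 against cDC2, 25 and 4 in mast cells and 21 and 6 in neutrophils. No member changed direction without the block. The early-response ratio in macrophages at 12 weeks ranged from -0.56 to -0.52 over its alternatives, and at 21 weeks from -0.081 to 0.054, with a change of sign in 3 of 9. At 21 weeks the sign of the early-response ratio also changed in 3 of 9 in αβ T cells (-0.083 to 0.20), 2 of 9 in γδ T cells (-0.12 to 0.054) and 1 of 9 in ILC2 (-0.18 to 0.23), and that of the heat-shock ratio in 1 of 9 in mast cells (-0.12 to 0.019). With class shares held constant the early-response ratio of all classes together at 21 weeks went from 0.16 to 0.036. Log2 differences that turned in sign were all of members not called, apart from Hspb1 in neutrophils (-0.81 without 21-week-DB, highest 2.28). Against lymphoid classes they were Atf3 (-0.00619 with stricter gates, and -0.042 to 0.30 with each library left out), Zfp36 (0.057 without 12-week-DB and 0.012 without 12-week-WT, lowest -0.40) and Klf6 (0.066 with no filter and -0.084 to 0.014 with each library left out). Against cDC2 they were Jun (0.0030 without 12-week-DB and 0.068 without 21-week-WT, lowest -0.24) and Egr2 (0.010 with DESeq2 size factors, 0.058 without 12-week-DB, 0.106 without 12-week-WT and 0.097 without 21-week-DB, lowest -0.44). The causes were not tested. The number of barcodes was lowest in neutrophils of 21-week-DB, with 35.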
